A study of Mus musculus with 24 samples.

Results

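The subunits of oxidative phosphorylation encoded in the mitochondrial and in the nuclear genome were followed across 24 libraries of mouse splenic T cells. Members were chosen by symbol: the mitochondrial mt-Nd, mt-Co, mt-Cytb and mt-Atp genes, and the nuclear Nduf, Sdha to Sdhd, Uqcr and Atp5 genes. The symbol rule matched 85 of 34111 genes, and 78 of these held at least 10 counts in at least 3 libraries: 13 mitochondrially encoded and 65 nuclear members. The mice were C57BL/6N and either Atm wt/wt (WT below) or Atm-/- (KO below), and they either received a transplant of B-cell lymphoma or did not (controls). No other allele or agent is named in the labels, and the sources used here do not give the ages, the kind of Atm allele or the lymphoma line. CD4 and CD8 T cells were sequenced apart, with 3 libraries in each of the 8 groups. Each library stands for a pool of mice, and the CD4 and CD8 libraries of 1 pool come from the same mice. The 12 pools held 22 mice in all: the WT lymphoma pools were single mice, and the others held 2 or 3. The n = 3 of each group therefore counts pools, and p-values measure the spread between pools.

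Oxidative phosphorylation makes most of the ATP of a resting cell. Complex I (NADH dehydrogenase), complex II (succinate dehydrogenase), complex III (the cytochrome bc1 complex) and complex IV (cytochrome c oxidase) pass electrons to oxygen, and complexes I, III and IV pump protons across the inner mitochondrial membrane. ATP synthase, complex V, lets the protons flow back through a ring of c subunits and couples that flow to ATP synthesis in its F1 head. Mitochondrial DNA encodes hydrophobic core subunits of complexes I, III, IV and V, complex II is encoded wholly in the nucleus, and every complex other than II must combine products of both genomes. T cells that are activated and divide expand their mitochondria and also raise glycolysis. ATM is a kinase of the DNA damage response, and its loss has been linked to altered mitochondrial function.

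By role, the nuclear members comprised 35 genes of complex I (7 core and 28 accessory subunits), 4 of complex II, 8 of complex III and 15 of ATP synthase. Ndufa4 was named as a complex I gene but is now counted as a subunit of complex IV, and Atp5s and Atp5sl carry the Atp5 name without being ATP synthase subunits. The other nuclear subunits of complex IV have Cox symbols and were outside the rule. The 7 matched genes under the filter were the pseudogenes Atp5k-ps2 (2 counts over the 24 libraries), Atp5l-ps1 (12), Atp5l-ps2 (3), Atp5l2-ps (18), Uqcrh-ps1 (2) and Uqcrh-ps2 (6), together with Ndufa4l2 (1), the hypoxia-induced relative of Ndufa4. The filtered members held from 365 counts over the 24 libraries for Atp5s upward, with 2446 for Sdhd, 3313 for mt-Nd6 and 3572 for mt-Nd4l. Counts of Atp5l, Atp5k and Uqcrh are uncertain to the extent that reads of near-identical pseudogenes were split among them. All 78 members passed the count filter of every fit.

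The compact mitochondrial genome bears on what a 3′ tag can resolve, and the bases that neighbouring members share are shown for that reason. In the GRCm38 mitochondrial sequence, the reading frames of mt-Atp8 and mt-Atp6 share 43 bases (chrM:7927-7969) and those of mt-Nd4l and mt-Nd4 share 7 (chrM:10167-10173), both pairs on the plus strand. The mt-Nd5 and mt-Nd6 genes lie on opposite strands and share 14 bases (chrM:13552-13565). Of the 13 genes 12 lie on the plus strand, and mt-Nd6 is the exception. The shared bases are in capitals, and each line reads 5′ to 3′ on the plus strand.
mt-Atp8 into mt-Atp6: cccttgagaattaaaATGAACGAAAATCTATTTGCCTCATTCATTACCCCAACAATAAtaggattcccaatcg
mt-Nd4l into mt-Nd4: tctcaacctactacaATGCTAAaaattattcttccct
mt-Nd5 against mt-Nd6: ttatcttatactcaaTTAATCTCGAGTAA
In the annotation, each first gene of the same-strand pairs ends inside its downstream neighbour, and each pair is known to be carried on 1 shared transcript. The sources used here do not say how deposited counts were divided between the members of a pair, so the levels of mt-Atp8 and mt-Nd4l in particular are uncertain.

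The libraries held 6470482 to 10196062 counts. Atm, the targeted gene, ran from 26.9 to 107 CPM (counts scaled to a library total of 1000000) in the 12 KO libraries and from 117 to 210 CPM in the 12 WT libraries, with no overlap. Cd4 was at 71.1 to 134 CPM in CD4 and 1.45 to 7.94 CPM in CD8 libraries, and none of 16 T cell markers was at 0 throughout a group. Cd8b1 was at 174 to 671 CPM in CD8 and 12.8 to 39.8 CPM in CD4 libraries, and Cd8a at 142 to 534 and 2.84 to 22.5 CPM. Both were lowest of the CD8 libraries in KO lymphoma 1 and highest of the CD4 libraries in KO lymphoma 2. Some libraries stood apart. The CD8 KO lymphoma 1 library had the highest erythroid sum (66146 CPM over 11 markers, before CD4 KO control 2 with 35257 CPM) and the lowest T cell sum (1563 CPM), while both KO lymphoma 3 libraries were highest in 24 S phase and mitosis genes (3729 CPM in CD4 and 2579 CPM in CD8, against 578 to 2156 CPM elsewhere). No marker of B cells, erythroid cells, platelets, monocytes or NK cells was at 0 throughout a group either. The labels used here give no sex, but the summed level of 3 Y-linked genes differed between groups. It was at 54.7 to 189 CPM in all 6 WT control libraries and 46.4 to 161 CPM in pool 3 of each other mouse group, and at 0.986 to 4.801 CPM in pools 1 and 2 of those groups. Every comparison with WT controls, and both interactions, therefore also compare pools of unlike Y-linked level. With a Y-linked covariate 0 members were called in these comparisons. The nuclear median log2 fold change then moved from 0.02 to 0.17 for CD4 WT lymphoma against control, from -0.00 to 0.21 for CD4 control KO against WT and from 0.10 to -0.06 for the CD4 interaction. In such bulk samples fewer cells of a type and less RNA per cell cannot be told apart.

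The mitochondrially encoded members outnumbered the nuclear ones in counts in every library. Together the 13 genes took 1.18 to 2.80% of all counts and the 65 nuclear members 0.755 to 1.14%. A tag library counts transcript 3′ ends, so values are given as CPM and were not divided by gene length. Within the mitochondrial sum, mt-Co2 (complex IV) took 17.8% on average over the 24 libraries, mt-Co3 16.2%, mt-Cytb (the only mitochondrial gene of complex III) 15.9% and mt-Atp6 (the proton channel subunit a) 14.8%. The complex I gene mt-Nd4 followed with 13.6%, mt-Nd2 with 8.52%, mt-Nd1 with 6.68% and mt-Nd3 with 3.16%. The rest took small shares: mt-Co1 2.03%, mt-Nd5 0.887%, mt-Atp8 0.235%, mt-Nd4l 0.102% and mt-Nd6 0.0939%. Genes of a shared transcript were therefore counted very unequally, mt-Atp6 against mt-Atp8 and mt-Nd4 against mt-Nd4l, with the upstream gene of each pair the lower.

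Across the 24 libraries the mitochondrial members varied more than the nuclear ones. The coefficient of variation of CPM had a median of 25.3% over the 13 mitochondrial members and 15.1% over the 65 nuclear members. The steadiest member of all was Uqcrh, the acidic hinge protein of complex III, at 535 to 696 CPM (7.19%). At the other end stood Sdhd, the membrane anchor of complex II (93.9%, 0.306 to 47.5 CPM), and mt-Nd4l (62.2%, 5.33 to 53.2 CPM). The highest nuclear members were Atp5l, a membrane subunit of ATP synthase, at a mean of 716 CPM, Uqcrh at 613 CPM and the c subunit gene Atp5g3 at 554 CPM. Complex I was led by the accessory subunit Ndufb3 (279.8 CPM) and complex II by the iron-sulfur subunit Sdhb (137 CPM), beside Sdhc at 131, Sdha at 82.9 and Sdhd at 12.3 CPM. Atp5g1, Atp5g2 and Atp5g3 encode the same mature c subunit, and Atp5g3 gave 67.5% of their summed counts on average, Atp5g2 23.6% and Atp5g1 8.92%. The order of the 3 c subunit genes held in every library, since the shares ran from 62.0 to 73.5%, from 17.6 to 28.5% and from 7.44 to 12.1%.

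**Figure D1:**
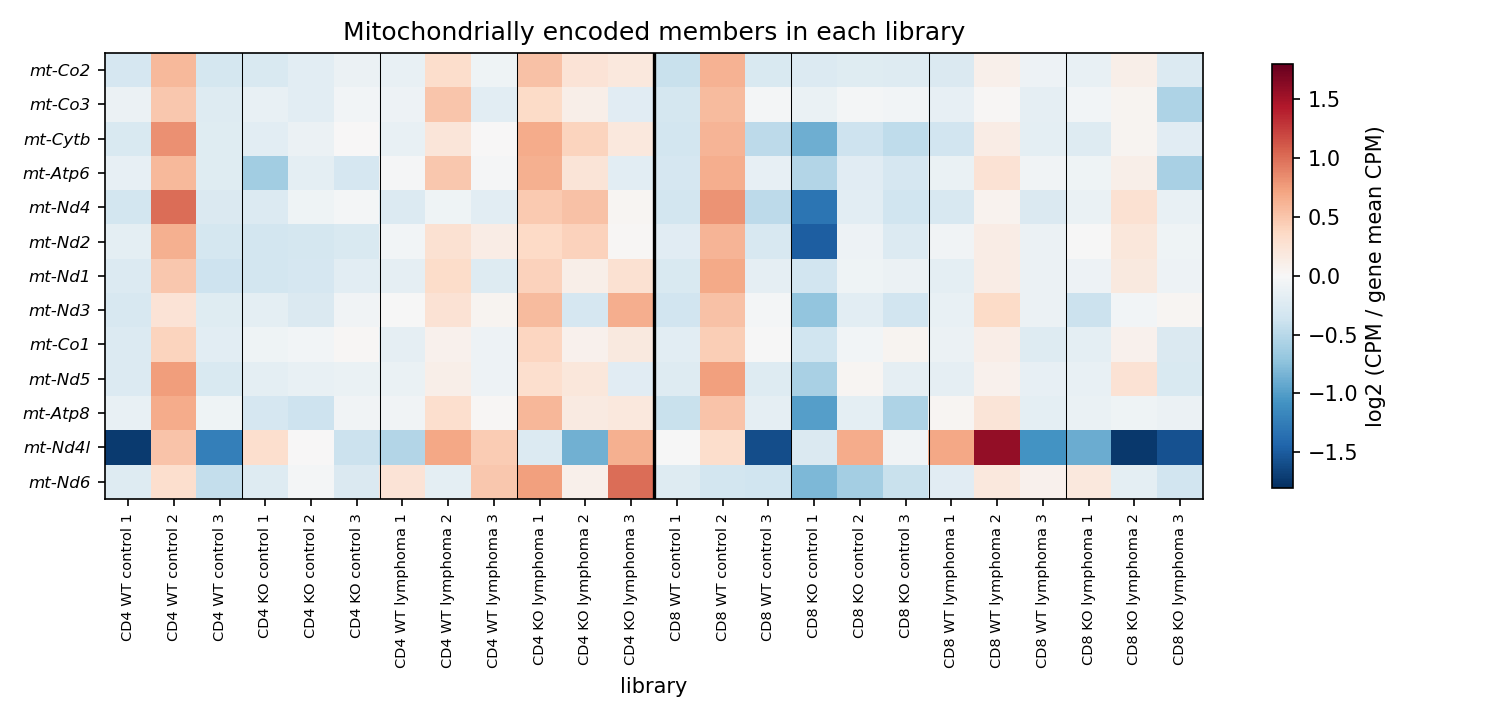
Level of each mitochondrially encoded member (rows, ordered by mean level) in each of the 24 libraries (columns), as log2 of its CPM over the mean CPM of that gene. Red is above and blue below the mean: WT control 2 is high in both co-receptors, CD8 KO control 1 holds the lowest value of 8 of 13 members, and mt-Nd4l has the widest spread.

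The WT control 2 mouse pool stood apart in its mitochondrial transcripts. The WT control sums were 15092, 27951 and 14758 CPM in CD4 and 14172, 27591 and 14876 CPM in CD8 cells. Pool 2 was thus far above the other pools in both cell types, and its libraries were the highest of all 24. Of the 13 members 10 had their highest value in a library of that pool. Against the mean of controls 1 and 3, 13 of 13 members were higher in CD4 control 2 (ratio 1.42 for mt-Nd3 to 3.93 for mt-Nd4l, median 1.74), and 12 of 13 in CD8 control 2 (0.976 for mt-Nd6 to 2.31 for mt-Nd4, median 1.84). Over the 13232 genes tested with all 24 libraries, 38.7% and 41.3% were higher. The 65 nuclear members of the same libraries moved both ways: their ratios ran from 0.628 (Uqcrc1, a core subunit of complex III) to 1.73 (Ndufb3) in CD4, with a median of 1.08, and from 0.803 (Atp5d) to 1.51 (Sdhd) in CD8, with a median of 1.02. Of these 65, 9 had their highest and 9 their lowest value of all 24 libraries in CD4 WT control 2, where 8.08% of all genes had their highest and 15.9% their lowest in a library of that pool. The pool gave 3.23 and 3.47 mitochondrial counts per nuclear member count against 1.77 to 1.96 in the other WT controls. Its summed markers of erythroid cells (439.8 and 405 CPM) were the lowest of their groups and those of monocytes (1069 and 1182 CPM) the highest, and their part in the result was not tested.

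At the low end stood CD8 KO control 1, whose mitochondrial sum of 11819.6 CPM was the lowest of the 24. This library also had the most genes with a count (17707, against a median of 16300.5). Its total was 6541484 counts, where the lowest was 6470482. The part of these traits in its values was not tested. The mitochondrial deficit of this library was uneven: mt-Nd2 was at 539 CPM against 1423 and 1271 CPM in the other CD8 KO controls, and mt-Nd4 at 984 CPM against 2149.9 and 1898 CPM. By contrast mt-Co2 was at 2646, 2696 and 2664 CPM in the same 3 libraries, and mt-Co3 at 2601, 2753 and 2743 CPM. The CD4 library of those mice showed another pattern. Its mt-Nd2 was near that of its group, with 1203, 1209 and 1244 CPM in the CD4 KO controls, but its mt-Atp6 was the lowest of the 24 libraries (1696, 2325 and 2127 CPM in the same order). Its mitochondrial sum of 14577 CPM was also the lowest of its group, against 15637 and 16353 CPM.

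The nuclear members stood apart in another pool, KO lymphoma 3. Their sums in KO lymphoma were 8636, 8216 and 11362 CPM in CD4 and 8472, 8715 and 10753 CPM in CD8 cells, so that pool 3 was highest in both. Of the 65 nuclear members 46 (70.8%) had their highest value of all 24 libraries in a library of that pool, where 26.9% of all 13232 genes tested did. Against the mean of pools 1 and 2, 64 of 65 were higher in CD4 (median ratio 1.38) and 61 of 65 in CD8 cells (median 1.21), against 55.0% and 50.6% of all genes. Other nuclear genes of the organelle did likewise: 63 of 79 mitochondrial ribosomal protein genes, and 10 of 15 genes of nuclear complex IV subunits and cytochrome c, also had their highest value in that pool, so the trait was shared beyond the members. The mitochondrial members of the same libraries did not share this: 4 of 13 and 1 of 13 were higher, with median ratios of 0.868 and 0.855. The ratio of mitochondrial to nuclear member counts in CD8 KO lymphoma 3 was accordingly the lowest of the 24 libraries (1.36). Without the KO lymphoma 3 libraries, the nuclear sum spanned 7547 to 9453 CPM over the remaining 22, a 1.25-fold range against 1.51-fold with them. The S phase and mitosis genes were highest in these same libraries, as given above, and the T cell sum was lowest of the CD4 libraries (2281 CPM), and their part in the result was not tested.

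**Figure D2:**
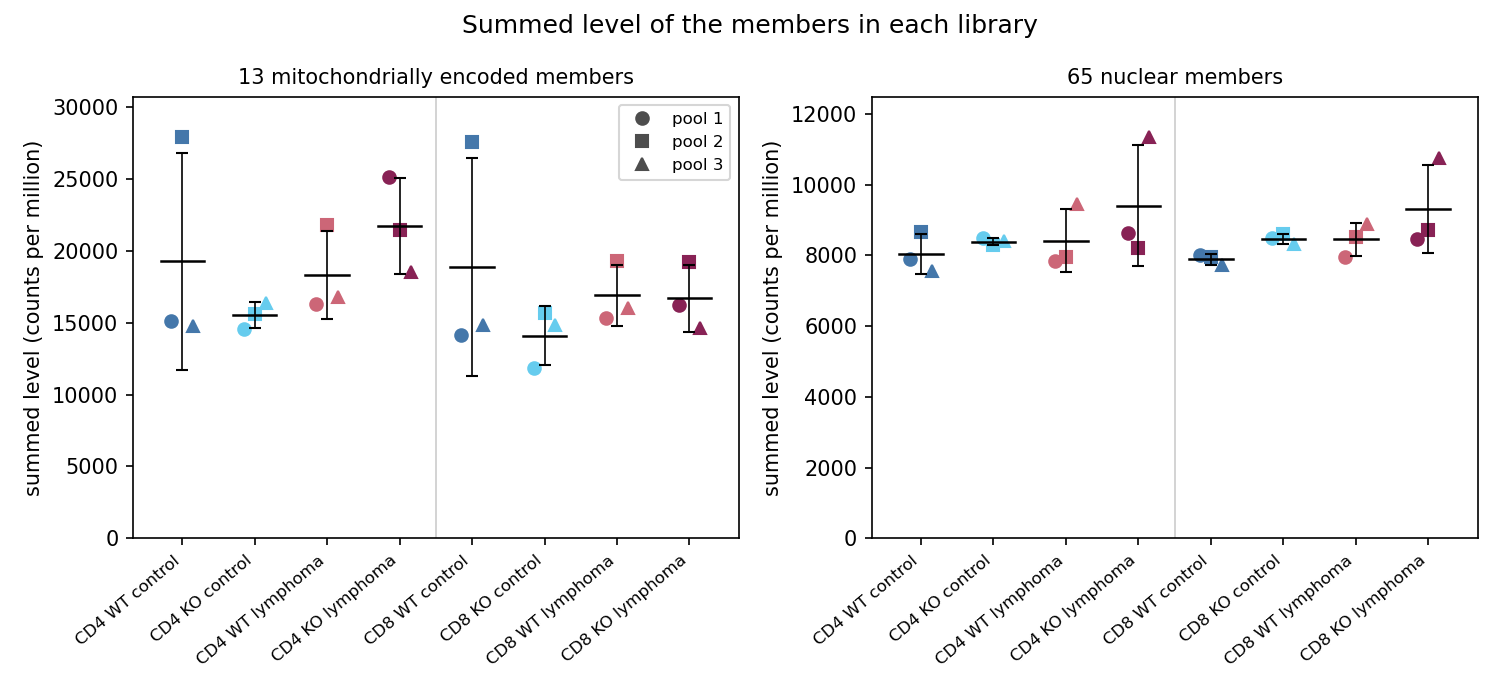
Summed levels (CPM) of the 13 mitochondrially encoded (left) and 65 nuclear members (right) in each library. Symbols mark the mouse pool within a group, bars the mean and SD (n = 3 pools): WT control pool 2 stands out on the left in both co-receptors, and KO lymphoma pool 3 on the right.

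The first question was whether T cells of lymphoma-bearing mice differed from those of controls. In CD4 cells of WT mice no member passed the test. The mitochondrial sum was 19267 ± 7523 CPM (SD, n = 3) in controls and 18321 ± 3029.7 CPM in lymphoma, and the nuclear sum 8038 ± 569 and 8422 ± 895 CPM. With edgeR's quasi-likelihood test and Benjamini-Hochberg adjustment over 12808 genes, 0 of 78 members passed 0.05, where 1.62% of all genes were called higher and 0.0703% lower. At an unadjusted p under 0.05 stood 1 member (background 15.2%), and DESeq2 called 0 (5.08% of genes). The nuclear members with the smallest p were Ndufs1, the large iron-sulfur core subunit of complex I (log2 fold change -0.32 ± 0.14, adjusted p = 0.318), the accessory subunit Ndufb8 (0.36 ± 0.18, adjusted p = 0.373) and Atp5b, the catalytic subunit of ATP synthase (0.30 ± 0.16, adjusted p = 0.388), none of which passed. The median log2 fold change was -0.08 over mitochondrial, 0.02 over nuclear members and -0.01 over all genes. Leaving out WT control 2 moved the mitochondrial median to 0.29.

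CD4 cells of KO mice had a higher mitochondrial sum in every lymphoma library than in any control. The mitochondrial sums were 25174, 21474 and 18547 CPM with lymphoma and 14577, 15637 and 16353 CPM without, with no overlap. Of the 13 members 12 had a fold change above 0 (48.6% of all genes) and the median was 0.50, against 0.11 over nuclear members and -0.01 over all genes. For 8 of 13 mitochondrial and 7 of 65 nuclear members all lymphoma libraries lay above all controls (8.8% of all genes). No single member passed the test, nor did any gene in this comparison (background 0% higher and 0% lower), while DESeq2 called 0 members and 2.41% of genes. At an unadjusted p under 0.05 stood 4 mitochondrial and 3 nuclear members, all higher (background 15.2%).

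Among them was mt-Nd6, the light-strand complex I gene, at 27.2, 17.4 and 32.7 CPM with lymphoma and 13.9, 15.9 and 13.7 CPM without (0.79 ± 0.26, adjusted p = 0.206). The other mitochondrial members past the unadjusted threshold were mt-Atp8 (0.55 ± 0.23, adjusted p = 0.293), mt-Nd2 (0.58 ± 0.25, adjusted p = 0.311) and mt-Nd3 (0.49 ± 0.22, adjusted p = 0.317). The nuclear gene with the smallest p was Ndufa12, an accessory subunit that joins complex I late in assembly, at 76.8, 71.4 and 111 CPM against 62.3, 53.8 and 55.4 CPM (0.57 ± 0.16, adjusted p = 0.175). All 3 lymphoma values of Ndufa12 lay above the controls and the highest was again pool 3. Ndufb8 (0.48 ± 0.18, adjusted p = 0.246) and Sdhc (0.30 ± 0.14, adjusted p = 0.325) followed without passing. Without KO lymphoma 3 the nuclear median was -0.02, while the mitochondrial median stayed between 0.38 and 0.58 whichever of the 6 libraries was left out. The summed mitochondrial ribosomal protein genes were higher with lymphoma without overlap (3491 to 5020 against 3283 to 3488 CPM), and 0 of 79 were called. Summed B cell markers were lower in these lymphoma libraries without overlap (401 to 589 CPM over 16 markers, against 1334 to 1647 CPM in controls), as were NK cell markers (294.6 to 418 CPM over 8 markers, against 609 to 766 CPM). Those of monocytes and macrophages overlapped, at 2089 to 2996 CPM with lymphoma and 1596 to 2130 CPM without. Summed erythroid markers overlapped too, but reached far higher in controls (2135 to 6207 CPM with lymphoma and 5130 to 35257 CPM without). The part of these cell types in the result was not tested.

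In CD8 cells the comparison of lymphoma with control also called 0 of 78 members in either genotype. In WT mice the backgrounds were 1.26% of 12650 genes higher and 0.158% lower, 3 members had an unadjusted p under 0.05 (background 17.8%), and DESeq2 called 1 (5.73% of genes). That member was Ndufb8, at 188, 209 and 231 CPM with lymphoma and 161, 159 and 163 CPM without (0.39 ± 0.12, adjusted p = 0.112 in edgeR, 0.0402 in DESeq2). Every lymphoma value of Ndufb8 (chr19:44548572-44555440, GRCm38) was above every control. Ndufs1 went the other way, from 48.4, 51.4 and 49.2 CPM in controls to 37.2, 38.5 and 39.4 CPM (-0.36 ± 0.12, adjusted p = 0.135), again with no overlap. The accessory subunit Ndufc2 came next (0.35 ± 0.16, adjusted p = 0.277). The mitochondrial median was -0.13 and was 0.29 without WT control 2, so its sign depended on that pool, and the nuclear median was 0.11 (all genes -0.01). Groups did not overlap, with lymphoma higher, for 11 members (14.2% of all genes). Of 10 platelet markers 6 were called higher in this comparison, and 5 in the CD4 one. In both, the summed T cell markers were lower and those of platelets, neutrophils and S phase and mitosis genes higher without overlap, and in CD4 those of monocytes and macrophages too. The 12 monocyte and macrophage markers did not move together in CD4. Cybb was called higher (1.66 ± 0.33, adjusted p = 0.0320) and Cd163 lower (-1.29 ± 0.29, adjusted p = 0.0458). The part of these cell types in the result was not tested.

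In KO mice the CD8 comparison came nearest to calls. The backgrounds were 1.39% higher and 0.791% lower, 12 members had an unadjusted p under 0.05 (10 higher and 2 lower, background 27.3%), and DESeq2 called 5, all nuclear and higher (11.1% of genes). Ndufb8 was at 284.4, 220.0 and 290.5 CPM with lymphoma and 181.9, 210.4 and 202.6 CPM without (0.41 ± 0.12, adjusted p = 0.0672). Atp5l was at 769, 783 and 1033 CPM against 597, 679.9 and 636 CPM (0.43 ± 0.14, adjusted p = 0.0860), and Atp5g3 at 601, 565 and 774 CPM against 487, 518 and 459.9 CPM (0.40 ± 0.13, adjusted p = 0.0943). For each of these 3 genes all lymphoma libraries were above all controls. The 3 were picked for their small p, so this order is no separate support. Leaving out KO lymphoma 2 made 4 members pass, Ndufb8 among them (adjusted p = 0.0126). Without KO lymphoma 1, the library with the highest erythroid sum, 0 passed and Ndufb8 had 0.34 (adjusted p = 0.193). The nuclear median was 0.11 with all libraries and -0.04 without KO lymphoma 3. The mitochondrial median was 0.18. Of 16 T cell markers 3 were called lower here (Cd3e, Thy1 and Cd247), of 10 platelet markers 1 higher (Treml1) and of 24 S phase and mitosis genes 3 higher (Gins2, Cdc45 and Rrm1). The summed T cell markers were lower without overlap (1563 to 3104 CPM against 3762 to 4056 CPM). Those of neutrophils (3517, 467 and 343 CPM against 54.6 to 62.2 CPM), of monocytes and macrophages (2044 to 2744 against 1334 to 1371 CPM) and of platelets (317 to 452 against 154 to 286 CPM) were higher without overlap. The part of these cell types in the result was not tested.

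**Figure D3:**
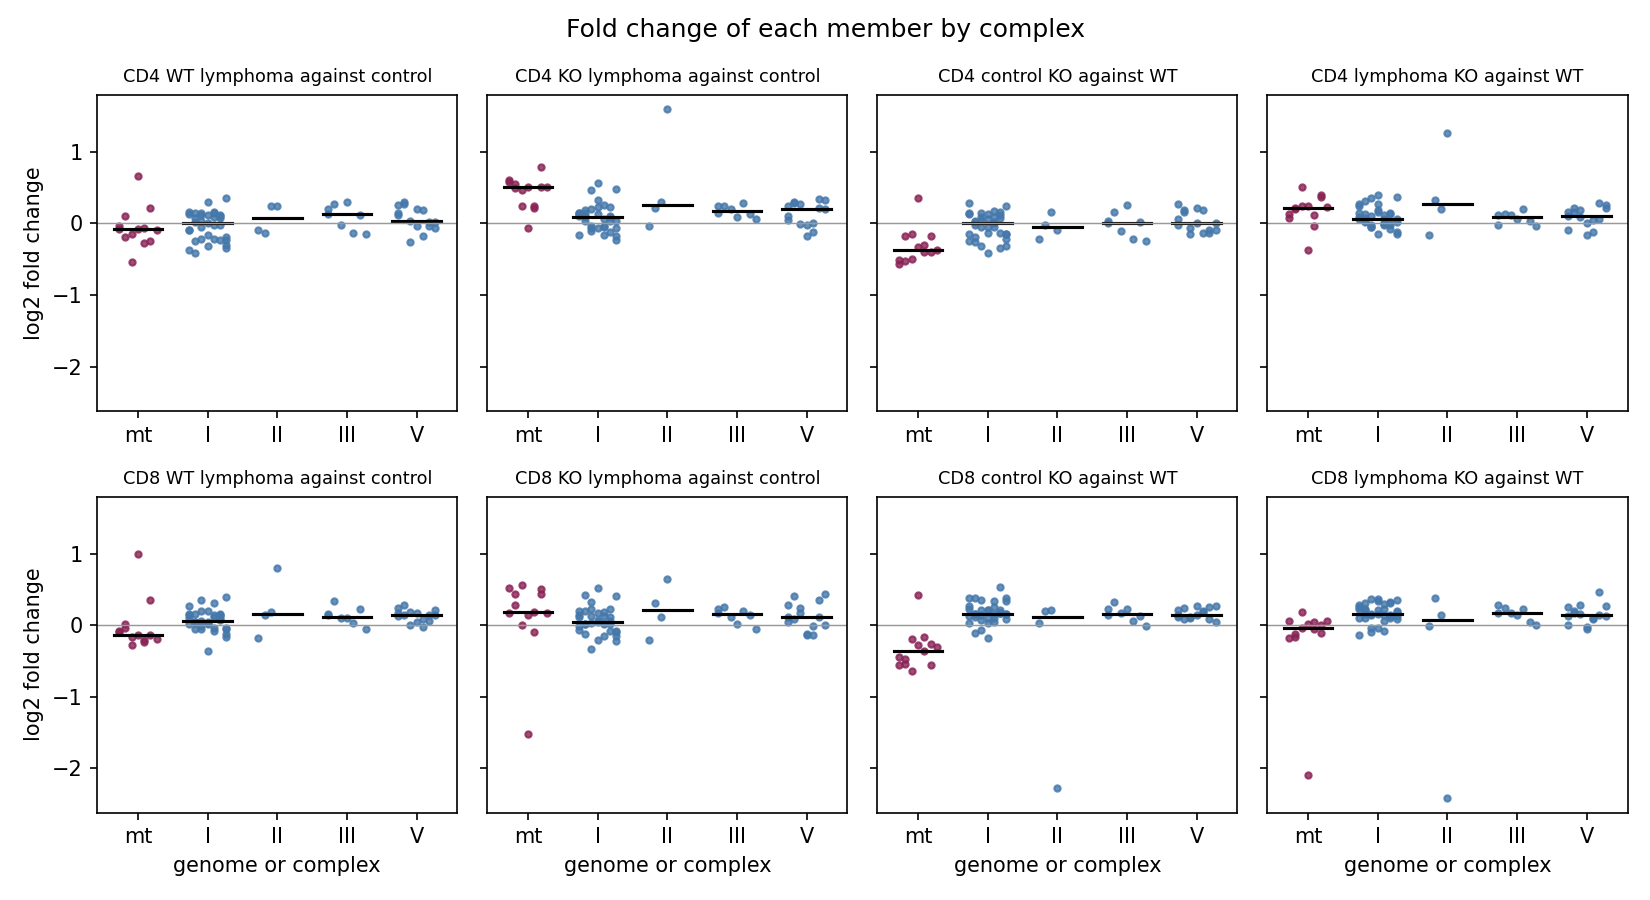
Log2 fold change of each member in the 8 comparisons within a co-receptor (upper row CD4, lower row CD8). Each point is a gene, grouped as mitochondrially encoded (mt) or by nuclear complex, and the black line is the group median; none of the 78 members passed the test in these comparisons, and the far points are Sdhd in complex II and mt-Nd4l among the mt genes.

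The second question was whether the loss of Atm changed these genes. In CD4 cells of control mice 0 of 78 members were called (backgrounds 1.94% higher and 0.0703% lower), 2 had an unadjusted p under 0.05, both lower (background 18.1%), and DESeq2 called 0 (5.85% of genes). Ndufs1 was at 44.1, 43.0 and 36.2 CPM in KO and 49.1, 54.7 and 51.8 CPM in WT controls (-0.41 ± 0.14, adjusted p = 0.158), without overlap. As Ndufs1 was picked for its small p, this order is no separate support. The other member past the unadjusted threshold was mt-Atp8 (-0.53 ± 0.23, adjusted p = 0.251). The accessory subunit Ndufa2 (-0.34 ± 0.16, adjusted p = 0.285) and Sdha, the flavoprotein of complex II (-0.21 ± 0.12, adjusted p = 0.382), came next. Of the 13 mitochondrial members 1 had a fold change above 0 (49.1% of all genes) with a median of -0.37, but leaving out WT control 2 gave 0.08. For none of the 13 did the groups separate. Of 12 monocyte and macrophage markers 8, of 10 platelet markers 4 and of 8 NK cell markers 2 (Eomes and Tyrobp) were called higher in these KO controls. The groups did not overlap in the summed markers of 6 of the 7 cell types listed, with T cells lower and the others higher in KO, and overlapped in erythroid cells. The summed S phase and mitosis genes were also higher in KO without overlap (896 to 1375 against 578 to 676 CPM), and 0 of 24 were called. The part of these cell types and genes in the result was not tested.

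In the CD8 controls the mitochondrial median was -0.36 with 12 of 13 under 0, and -0.07 without WT control 2. The nuclear members differed in sign: 58 of 65 had a fold change above 0 (median 0.16), against 54.6% of all genes (median 0.04). With edgeR 0 of 78 members were called (backgrounds 0.403% higher and 0.119% lower), 9 had an unadjusted p under 0.05 (8 higher and 1 lower, background 14.7%), and DESeq2 called 2 (2.95% of genes). For 20 nuclear members all KO libraries lay above all WT libraries (12.1% of all genes). The smallest p belonged to Ndufb7, an accessory subunit of the complex I membrane arm, at 129, 91.0 and 88.8 CPM in KO and 73.3, 74.2 and 70.5 CPM in WT controls (0.53 ± 0.14, adjusted p = 0.123 in edgeR, 0.0283 in DESeq2). KO control 1, the library with the most genes counted, was the highest of the 24 libraries for Ndufb7. The accessory subunit Ndufa13 was at 193, 171 and 163 CPM against 134, 149 and 143 CPM (0.34 ± 0.11, adjusted p = 0.196), again without overlap. The summed markers of monocytes and macrophages (1334 to 1371 CPM against 224 to 1182 CPM), NK cells (963 to 1247 against 461 to 782 CPM) and platelets (154 to 286 against 64.9 to 110 CPM) were higher in KO without overlap, and those of T cells lower (3762 to 4056 against 4343 to 4950 CPM). The summed mitochondrial ribosomal protein genes and nuclear complex IV genes were also higher in KO without overlap. So were the summed S phase and mitosis genes (710 to 1069 against 615 to 698 CPM), of which 0 of 24 were called. The part of these cell types and of the S phase and mitosis genes in the result was not tested.

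With lymphoma, KO against WT in CD4 cells gave 0 calls (background 0% higher and 0% lower), 2 members with an unadjusted p under 0.05 (background 10.9%) and 0 DESeq2 calls (0.756% of genes). The smallest p values were those of Ndufa12 (0.39 ± 0.16, adjusted p = 0.410), Sdhb (0.33 ± 0.15, adjusted p = 0.457) and Ndufb8 (0.37 ± 0.18, adjusted p = 0.475). Summed markers of platelets, monocytes and macrophages, and NK cells were higher in KO without overlap. In CD8 cells there were also 0 calls (backgrounds 0.0711% higher and 0.174% lower), but 12 members had an unadjusted p under 0.05 (10 higher and 2 lower, background 18%) and DESeq2 called 4, of which 2 were higher and 2 lower (4.28% of genes). The higher ones were Atp5k, a small membrane subunit of ATP synthase, at 241.2, 214.0 and 284.1 CPM in KO and 178.2, 181.3 and 183.1 CPM in WT (0.46 ± 0.12, adjusted p = 0.115), and Sdhb at 167, 142 and 182 CPM against 122, 125 and 134 CPM (0.38 ± 0.11, adjusted p = 0.132). All KO values of both genes lay above all WT values. Both were picked for their small p, so this order is no separate support. Both passed the edgeR test when KO lymphoma 2 was left out (adjusted p = 0.0217 and 0.0248). In the other 5 single-library omissions neither passed (adjusted p up to 0.403 and 0.439). The lower ones were Sdhd and mt-Nd4l, described next. Of 16 T cell markers Lef1 was called lower in KO (-1.29 ± 0.23, adjusted p = 0.0486), and the summed T cell markers were lower without overlap (1563, 3104 and 2479 CPM against 3953, 3517 and 3151 CPM). Those of neutrophils, monocytes and macrophages, and NK cells were higher without overlap, and the part of these cell types in either comparison was not tested.

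Sdhd anchors succinate dehydrogenase in the inner membrane and carries part of its ubiquinone site. In CD8 cells its level was 0.306, 5.80 and 1.74 CPM in KO controls and 4.32, 5.77 and 2.59 CPM in KO lymphoma, against 6.69, 17.1 and 16.1 CPM in WT controls and 23.8, 25.3 and 19.8 CPM in WT lymphoma. All 6 CD8 KO libraries were below all 6 CD8 WT libraries. The log2 fold change of KO against WT was -2.28 ± 0.65, adjusted p = 0.172 in controls and -2.42 ± 0.63, adjusted p = 0.117 in lymphoma, so neither passed edgeR's test, while DESeq2 gave 0.0125 and 0.00558. In CD4 cells the same mice showed no such order: KO controls were at 5.17, 12.6 and 7.91 CPM, KO lymphoma at 33.5, 1.001 and 47.5 CPM, WT controls at 6.81, 9.36 and 9.89 CPM and WT lymphoma at 22.1, 3.52 and 6.24 CPM. The KO lymphoma pools thus spanned the lowest and the highest CD4 values of the gene. The difference between CD8 and CD4 in the KO response under lymphoma was -3.67 on the log2 scale (adjusted p = 0.9999). That test did not keep the mouse pool as a block. The deposited counts behind these values ran from 2 to 376, unlike Sdha, Sdhb and Sdhc, which varied by 10.1 to 17.5% over the libraries. Sdhd lies at chr9:50596357-50603812 (GRCm38, GENCODE M21), 2.84 Mb from Atm. An effect of Atm loss and one of the chromosome 9 segment that a targeted allele can carry with it cannot be told apart. Atp5l (8.52 Mb from Atm) and Uqcrc1 (55.4 Mb) are the other members on that chromosome.

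The other uneven member, mt-Nd4l, encodes a small membrane subunit of complex I. In CD8 lymphoma libraries it was at 9.61, 5.33 and 6.03 CPM in KO and 28.9, 53.2 and 8.47 CPM in WT mice (-2.10 ± 0.66, adjusted p = 0.169; DESeq2 0.0142), and the groups overlapped. Its deposited counts were not spread evenly: all 24 lay within 2.50 counts of a whole multiple of 24.5, from 2 to 17 multiples. The mean distance from such a multiple was 0.0136 of a step, where the best step found the same way for any other of the 77 members checked gave 0.127 or more. The values of mt-Nd4l therefore hold no finer detail than that step. Its neighbour mt-Nd4 had 2245, 2956 and 2223 CPM in KO and 2002, 2554 and 2035 CPM in WT CD8 lymphoma libraries (0.18 ± 0.37, adjusted p = 0.827).

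**Figure D4:**
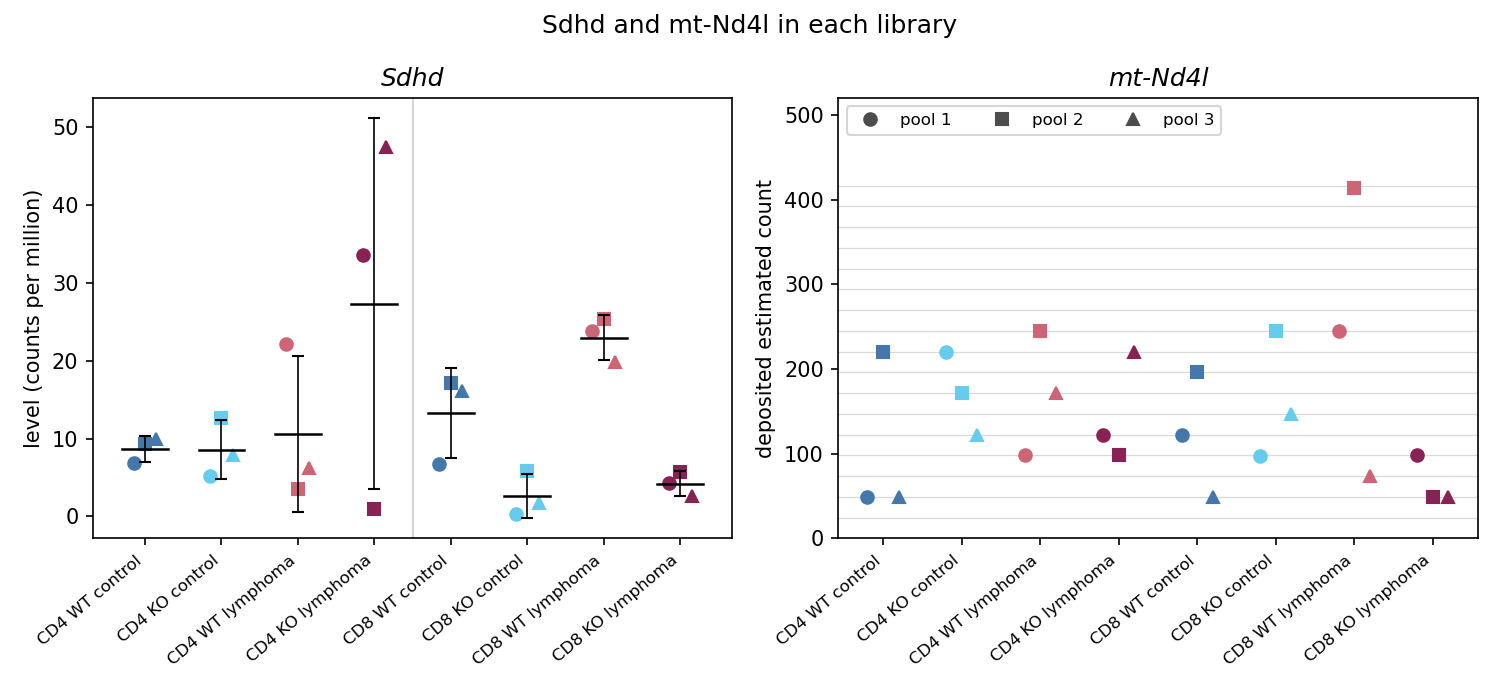
Left, Sdhd in CPM by group, with the mean and SD (n = 3 pools): the 6 CD8 KO libraries lie below the 6 CD8 WT libraries, and the CD4 groups overlap. Right, deposited estimated counts of mt-Nd4l, with grey lines at whole multiples of 24.5: all 24 counts lie on or near a line.

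Whether Atm genotype altered the response to lymphoma was tested as an interaction. In CD4 cells 0 members were called (background 0% in each direction), 1 had an unadjusted p under 0.05 (background 3.64%), and DESeq2 called 0 (0.00481% of genes). In CD8 cells the counts were 0 (background 0% in each direction), 1 (background 3.49%) and 0 (0.00465% of genes). The medians over mitochondrial members were 0.59 in CD4 and 0.31 in CD8, and without WT control 2 they were 0.24 and -0.00. The CD4 member past the unadjusted threshold was mt-Atp8 (0.73 ± 0.33, adjusted p = 0.9999), and the CD8 one was mt-Nd4l (-2.52 ± 0.91, adjusted p = 0.9997), which moves in the steps given above. The smallest p among nuclear members belonged to Atp5e (-0.30, adjusted p = 0.9999), Uqcrc2 (0.42, adjusted p = 0.9999) and Sdhb (0.36, adjusted p = 0.9999) in CD4, and to Ndufs7 (-0.39, adjusted p = 0.9997), Atp5d (-0.31, adjusted p = 0.9997) and Ndufa12 (0.33, adjusted p = 0.9997) in CD8 cells. The CD8 response minus the CD4 response was also tested for the 4 comparisons of lymphoma and genotype, and 0 members were called in each (backgrounds 0, 0, 0.0378 and 0.0151%), with 0, 0, 3 and 1 past an unadjusted p of 0.05. In the order WT lymphoma, KO lymphoma, KO in controls and KO in lymphoma, 1.36, 4.75, 4.64 and 3.44% of genes passed the unadjusted threshold. These comparisons share groups, so they are not independent.

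CD8 and CD4 cells of the same mice were then compared, and here single members passed the test. Over the mean of the 4 groups edgeR called 3 of 78 members, all higher in CD8 cells: Ndufa10 (0.34 ± 0.06, adjusted p = 0.000375), Atp5sl (0.25 ± 0.08, adjusted p = 0.0298) and Ndufa9 (0.21 ± 0.07, adjusted p = 0.0419). Among all 13232 genes, 6.58% were called higher and 7.1% lower, both larger shares than among the members. Ndufa10 and Ndufa9 are accessory subunits of complex I, on its membrane arm and at the joint of its arms, and Atp5sl is a homologue of an ATP synthase coupling factor that has been linked to complex I assembly. When the mouse pool was kept as a block, 9 members were called, 8 higher and 1 lower (backgrounds 8.9% and 9.69%). The share called higher was thus near its background and the share called lower under it. The further members called were Atp5b, Atp5d, Atp5g2, Ndufb7 and Ndufb11, all higher, and mt-Cytb, lower (-0.26 ± 0.06, adjusted p = 0.00502). DESeq2 without the block called 4, all higher (13.3% of genes).

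Ndufa10 was at 77.0, 74.0 and 78.7 CPM in CD4 and 99.6, 92.7 and 101 CPM in CD8 WT controls. In KO controls it was at 83.3, 73.0 and 87.7 CPM in CD4 and 112, 99.4 and 107 CPM in CD8 cells, and neither group of controls overlapped. With lymphoma the values met: 83.1, 79.6 and 88.4 against 93.0, 81.8 and 104 CPM in WT and 83.4, 84.0 and 116 against 88.1, 106 and 127 CPM in KO mice. Within mice the order was the same throughout: the CD8 library was higher in 12 of 12 pools (1.93% of all genes), with ratios from 1.03 in WT lymphoma 2 to 1.36 in KO control 2. Without the block it passed in KO controls alone of the 4 groups (0.47 ± 0.12, adjusted p = 0.0249; backgrounds 2.35% higher and 2.6% lower). That call was lost without CD4 KO control 1 or 2 or CD8 KO control 1 or 3, and the estimates then lay between 0.40 and 0.48. In WT controls it did not pass (0.38 ± 0.12, adjusted p = 0.116; backgrounds 1.86% and 1.62%) but did with the pool block (adjusted p = 0.0161; backgrounds 2.58% and 2.23%). In WT lymphoma (0.21 ± 0.12, adjusted p = 0.687) and KO lymphoma (0.31 ± 0.12, adjusted p = 0.282) it passed neither fit. The response differences given above called no member, but they were tested without the block, so the groups were not shown to differ or to be alike. Over the mean of the 4 groups it passed whichever of the 24 libraries was left out. The gene lies at chr1:92439010-92473860 (GRCm38, GENCODE M21).

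The other calls made without the block were less steady when 1 library was left out. Atp5sl was higher in the CD8 library of 10 of 12 pools, with ratios from 0.928 to 1.40, and its call was lost in 8 of the 24 omissions of 1 library. Ndufa9 (chr6:126821721-126849136, GRCm38) was also higher in 10 of 12 pools (0.887 to 1.28), and its call was lost in 17 of 24. These omissions were fitted without the pool block, so they do not use the pairing. With all libraries and the block both passed (Atp5sl adjusted p = 0.0220, Ndufa9 adjusted p = 0.0109). For mt-Cytb the CD8 library was lower in 12 of 12 pools (5.69% of all genes), with ratios from 0.540 in KO lymphoma 1 to 0.960 in WT control 1. Its levels in the controls were 2339, 4984 and 2442 CPM in CD4 and 2246, 4317 and 2048 CPM in CD8 WT libraries, where the spread between pools was far larger than the difference within them. Without the block it did not pass (-0.26 ± 0.15, adjusted p = 0.290).

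**Figure D5:**
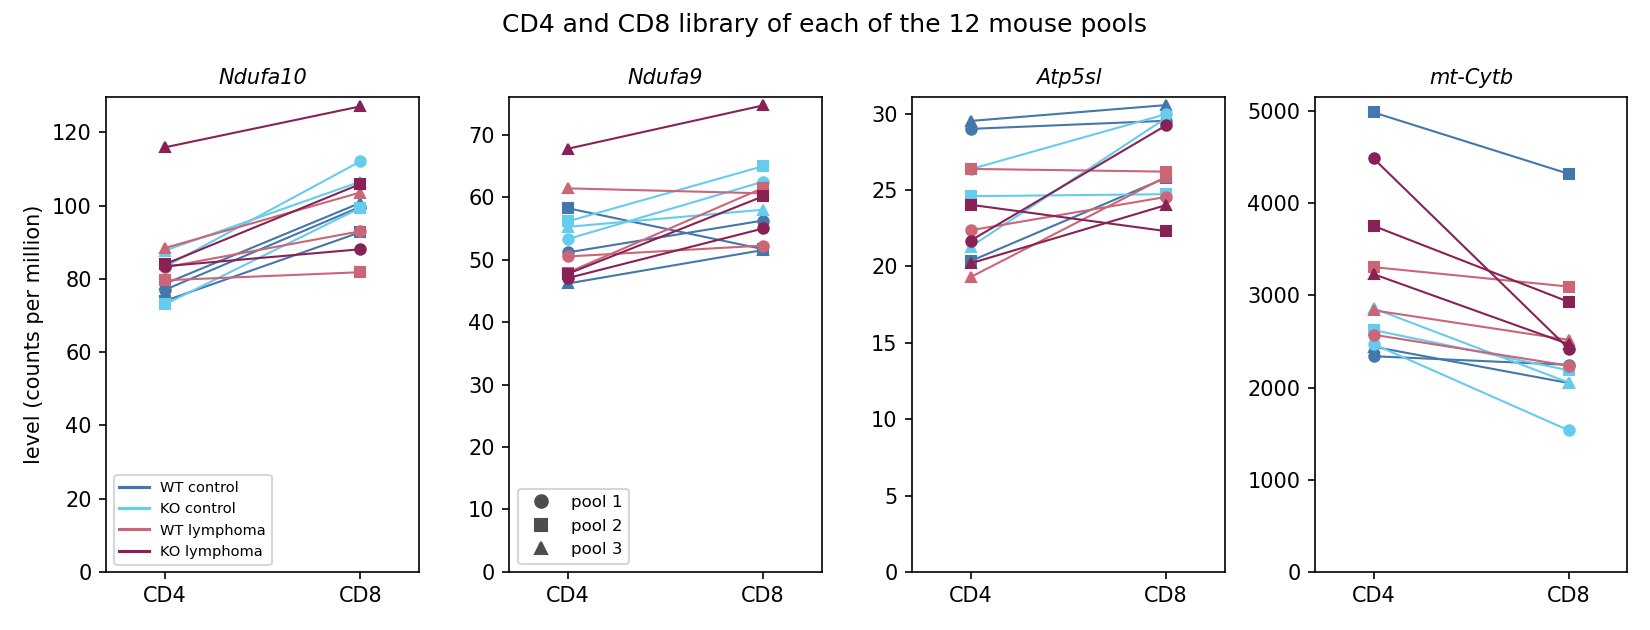
Level (CPM) of Ndufa10, Ndufa9, Atp5sl and mt-Cytb in the CD4 and the CD8 library of each mouse pool, joined by a line (12 pools; colour marks the group and symbol the pool). Ndufa10 is higher and mt-Cytb lower in the CD8 library of all 12 pools, and Ndufa9 and Atp5sl are higher in 10.

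Group by group the remaining members gave few calls. In KO controls Ndufa10 was the only call, and with the block Ndufb7 joined it (0.38 ± 0.10, adjusted p = 0.0263; backgrounds 3.93% and 5.03%). Without it, Ndufb7 (0.39 ± 0.13, adjusted p = 0.0962) and Atp5g1 (0.36 ± 0.15, adjusted p = 0.220) did not pass. In WT controls 0 members passed, with 1 at an unadjusted p under 0.05 (background 10.7%) and 0 by DESeq2 (4.34% of genes), and Ndufa5 (-0.36, adjusted p = 0.516) and Ndufs4 (-0.30, adjusted p = 0.590) followed Ndufa10. In WT lymphoma 0 passed (backgrounds 1.16% higher and 1.38% lower), 0 had an unadjusted p under 0.05 (background 9.36%) and DESeq2 called 0 (2.83% of genes), with Ndufb10 (0.16, adjusted p = 0.750) and Sdha (-0.17, adjusted p = 0.769) next. In KO lymphoma 0 passed (backgrounds 1.11% and 1.24%), 8 had an unadjusted p under 0.05 (background 11.5%) and DESeq2 called 0 (3.23% of genes).

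In the KO lymphoma comparison the 13 mitochondrial members all had a fold change under 0, where 49.5% of all genes were above it (median -0.29), for 5 of them without overlap between CD8 and CD4 libraries (8.73% of all genes). The mitochondrial sums were 25174, 21474 and 18547 CPM in CD4 and 16259, 19219.7 and 14602 CPM in CD8 cells, lower in CD8 within each of the 3 pools. Sdhd (-2.50 ± 0.89, adjusted p = 0.212), Ndufb11 (0.31, adjusted p = 0.251) and Ndufa9 (0.35, adjusted p = 0.277) had the smallest p among nuclear members. The median over the mean of the 4 groups was -0.07 for mitochondrial and 0.08 for nuclear members, of which 53 of 65 were above 0 (48.1% of all genes). Scaling bears on these signs. Without the trimmed mean of M values (TMM), the median of all genes in KO lymphoma moved by -0.12, nuclear members above 0 over the 4 groups numbered 35 of 65, and the nuclear median in WT lymphoma turned from 0.05 to -0.02. The split of all calls was 871 higher and 939 lower over the 4 groups with TMM and 577 and 1596 without it, 311 and 344 against 235 and 466 in KO controls, and 147 and 164 against 117 and 277 in KO lymphoma. Of 8 genes listed for NK cells 4 were called higher in CD8 cells, among them Eomes (2.06 ± 0.11), Nkg7 (2.34 ± 0.13) and Klrd1 (2.26 ± 0.13). Of 16 T cell markers 5 were called lower, among them Cd5, Cd28 and Cd6, and 1 higher. Bulk libraries cannot tell NK cells from CD8 T cells that carry the same transcripts. The part of these genes in the result was not tested.

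Genes that build or serve the same machinery were counted beside the members. Over the mean of the 4 groups, CD8 against CD4, 5 of 43 assembly factors were called higher and 1 lower, against the backgrounds of 6.58% and 7.1%. The lower one was Sdhaf1, which helps to insert the iron-sulfur clusters of Sdhb (-0.66 ± 0.08, adjusted p = 7.44e-06). It was called lower in WT controls, KO controls and WT lymphoma as well. Lyrm7, which matures the Rieske protein of complex III (0.57 ± 0.15, adjusted p = 0.0103), and Sco2, a copper chaperone of complex IV (0.47 ± 0.13, adjusted p = 0.0204), were higher. Of 15 tested nuclear subunits of complex IV and cytochrome c, Cox8a was the only call, higher in CD8 cells (0.34 ± 0.09, adjusted p = 0.00880). Polg, the mitochondrial DNA polymerase, was lower (-0.53 ± 0.07, adjusted p = 7.79e-06) and Tbrg4, an RNA stability factor, higher (0.27 ± 0.07, adjusted p = 0.00903) among 27 genes of mitochondrial DNA transcription and RNA processing. The regulators of respiratory genes held 1 call in each direction of 10: Ppargc1b, a coactivator (0.41 ± 0.08, adjusted p = 0.000791), and Gabpb1, a subunit of the ETS-type factor NRF2 (-0.38 ± 0.12, adjusted p = 0.0380). Slc25a4, the ADP/ATP carrier of the inner membrane, was higher (0.62 ± 0.08, adjusted p = 1.47e-05), the only call of 5 carriers and inhibitors.

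Mitochondrial ribosomal proteins counted 6 higher and 1 lower of 79 tested, led by Mrps36 (0.37 ± 0.07, adjusted p = 0.00116), whose product is also known as a subunit of the oxoglutarate dehydrogenase complex. This list, used above as well, was drawn by symbol and includes the pseudogene Mrpl23-ps1, called higher (0.31 ± 0.07, adjusted p = 0.00730). Import and outer membrane genes counted 2 of 15 higher, the chaperonin Hspe1 (0.33 ± 0.10, adjusted p = 0.0367) and the prohibitin Phb (0.36 ± 0.12, adjusted p = 0.0483). Of 19 citric acid cycle and pyruvate dehydrogenase genes Pdha1 alone was called, lower (-0.24 ± 0.06, adjusted p = 0.0105). Within a co-receptor these lists held 2 calls in all: the ribosomal protein genes Mrps6 in CD8 WT lymphoma against control (0.52 ± 0.11, adjusted p = 0.0442) and Mrps26 in CD8 KO lymphoma against control (0.98 ± 0.23, adjusted p = 0.0496).

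Promoters of respiratory genes are known for sites of NRF1 and of ETS-type factors, and the members were searched for such letters as a description of what they share beyond their names. RefSeq (GRCm38.p6) promoter windows, 250 bases before to 50 after the start, were matched for 53 of the 65 nuclear members. On either strand, the NRF1 letters (GCGCA, any base, GCGC) were in the windows of 16 members (30.2%, against 5.19% of 27025 genes) and CGGAAG (ETS) in 20 (37.7% against 18.8%). AAGATGGCG (YY1) was in 7 (13.2% against 1.64%) and TGACCTTG (ERR) in 4 (7.55% against 1.76%). Examples follow from members named above, each 30 bases on the gene's own strand with the NRF1 letters in capitals.
Sdha: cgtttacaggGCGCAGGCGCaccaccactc
Sdhd: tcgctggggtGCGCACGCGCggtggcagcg
Atp5k: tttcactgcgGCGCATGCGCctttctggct
Atp5g2: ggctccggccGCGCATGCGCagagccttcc
They lie at chr13:74350319-74350348 (98 bases before the start, 1 of 2 matches in Sdha), chr9:50603909-50603938 (79 bases), chr5:108434430-108434459 (50 bases) and chr15:102671070-102671099 (42 bases), all on the minus strand. The letters are the same motif in members whose levels differed, from Sdhd, the most variable nuclear member, to Sdha, which varied by 10.1%. Ndufa10 and Ndufb8 held none of the 4 motifs in this window, and Ndufa9 held the ETS and YY1 letters. The nuclear members with no matched window included Ndufs1, Ndufa2, Ndufb9, Sdhc, Uqcrb, Uqcrc2, Uqcrq, Atp5a1, Atp5f1, Atp5s and Atp5sl. A match of letters is not evidence of binding in these cells.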

How the data were processed

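RNA of splenic T cells, isolated with a mouse T cell kit, was made into QuantSeq 3′ tag libraries, per the labels. The sources used here do not say how the co-receptor populations were sorted apart. The deposited values are estimated counts per gene for 24 libraries. The submitters' processing notes name Salmon 0.11.3 and the build GRCh38, without a role. That build is of the human genome while the deposited symbols are of mouse genes, and the sources do not state how transcripts were summed to genes. Of 34113 rows 2 were dropped because a cell held no number, and 11473 genes had no count. The estimated counts, as deposited by the authors, were rounded to whole numbers for the tests. CPM was computed from each library's total count. Totals ran from 6470482 to 10196062, which limits precision for the lowest members.

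Groups came from the labels. Each comparison used edgeR 4.0.16 (limma 3.58.1, R 4.3.3): TMM scaling, filterByExpr with a minimum count of 10, quasi-likelihood tests and Benjamini-Hochberg adjustment over all genes tested, called at 0.05. CD4 and CD8 libraries were fitted apart for lymphoma and genotype, with all 12 libraries of a co-receptor in 1 fit, and together for CD8 against CD4. Fold changes are log2 and SE is that of the fitted coefficient. DESeq2 1.42.0, other scalings and filters, a Y-linked covariate, replicate blocks and omission of each library were alternatives. The labels give the same mice for the CD4 and CD8 library of a pool, and residuals of these 12 pairs correlated by -0.018 to 0.524, so pool blocks are given beside the results they change. Within a co-receptor the labels tie replicate numbers to nothing, but for CD4 cells of lymphoma-bearing mice, KO and WT residuals of equal number correlated over 0.1 in all 3 pairs (0.171 to 0.321). Pools 1 and 2 of both groups were low and pool 3 high in Y-linked RNA. On simulated data with 100 genes changed at each size, 82 (2-fold) and 95 (4-fold) were recovered over the mean of the 4 groups, 46 and 77 in CD4 and 45 and 76 in CD8 lymphoma against control in WT. False calls numbered 8, 8 and 5 in the same order. Changes under 2-fold and the pairing of pools were not simulated, so recovery of the smaller changes seen for most members is not known. The members, gene lists and alternatives were chosen with earlier results of these data known. Named were all mitochondrial members, per comparison up to 5 called nuclear members in each direction or else the 3 with the smallest p, the highest member per complex, the c subunit and Sdh families, members under the filter and up to 3 called genes per other list. Other members are named where an alternative or a value singled them out, after their values were seen. Positions and mitochondrial sequences are from GRCm38 with GENCODE M21. Figures used Python 3.11.15 and matplotlib 3.10.9.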

Additional observations from a re-analysis of the deposited data

How the results depend on the processing

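The count of 0 called members held under every alternative in the 4 CD4 comparisons and both interactions. In CD8 cells DESeq2 called 1 member for lymphoma against control in WT, 5 in KO, and for KO against WT 2 in controls and 4 in lymphoma. Leaving out single libraries gave 0 to 4 calls for CD8 KO lymphoma against control and 0 to 3 for CD8 lymphoma KO against WT, the highest without CD8 KO lymphoma 2 in both. A block of replicate numbers within a co-receptor left every such count at 0. In CD4 lymphoma KO against WT the deviations of all 3 same-numbered pairs correlated over 0.1 (0.171 to 0.321), and the block called 0 members there too. Over all 24 such pairs the correlation ran from -0.141 to 0.321.

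For CD8 against CD4 the mouse pool as replicate block, the pairing the labels give, called 1 member in WT controls, 2 in KO controls and 9 over the mean of the 4 groups. It changed no call in the lymphoma groups. WT controls also held 1 call with a Y-linked covariate. The 1 call in KO controls was lost, to 0, with library totals in place of TMM and with no filter on low counts, and leaving out libraries gave 0 to 1. In KO lymphoma leaving out libraries gave 0 to 2 (1 without CD4 KO lymphoma 2 and 2 without CD4 KO lymphoma 3). Over the mean of the 4 groups it gave 1 to 11: 11 without CD4 KO lymphoma 3, 6 without CD4 WT control 2, and 1 without CD4 KO control 3, CD4 KO lymphoma 1, CD8 WT control 1, CD8 KO control 3 or CD8 WT lymphoma 2. Leaving out both libraries of a pool, an alternative chosen after the data were seen, gave 8 without KO lymphoma 3 and 1 without WT control 3, KO control 3, WT lymphoma 1 or KO lymphoma 1. The causes were not tested.

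For single members, settings other than omissions kept the side of the threshold in 373 instances, gained a call in 12 and lost one in 5. Omissions kept it in 349, gained it in 4 and lost it in 43. With the main settings only Ndufa10 in KO controls and Ndufa10, Atp5sl and Ndufa9 over the mean of the 4 groups were called. All losses are of these calls, and for every other result keeping the side means staying uncalled. No called direction reversed. Atp5sl and Ndufa9 lost their calls without TMM, and of 8 settings other than omissions Atp5sl passed in 7 and Ndufa9 in 6. Members with few counts, Sdhd and mt-Nd4l above all, and groups of 3 pools limit what these tests can show.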
